A study of Rattus norvegicus with 172 samples.

Results

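The genes described here are 10 genes of the ATF4 arm of the integrated stress response and of the unfolded protein response of the endoplasmic reticulum (ER), followed in rat liver after 90 days on furan or 3-methylfuran. They were taken by symbol from the 32883 genes in each count table, and all 10 were found and tested. They are the transcription factor Atf4, 6 genes that ATF4 is known to switch on (Ddit3, Trib3, Asns, Chac1, Sesn2 and Ddit4), and 3 genes of the ER itself (Eif2ak3, Hspa5 and Xbp1). The animals were male Fischer F344 rats, and RNA came from pieces of flash-frozen whole liver, so a value is a mean over all cells of the piece. Furan was given at 0.03 (8 rats), 0.12 (8 rats), 0.5 (7 rats) or 2.0 mg/kg bw/day (7 rats), with 8 control rats. Its derivative 3-methylfuran, which carries a methyl group on the furan ring, was given at 0.02, 0.075 or 1.0 mg/kg bw/day with controls of its own, 8 rats in each group. Furan libraries were made with the Illumina Stranded mRNA prep kit and 3-methylfuran libraries with the TruSeq Stranded mRNA protocol, so compound, experiment and kit cannot be told apart in the levels, and each dose is compared only with the controls of its own experiment.

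The unfolded protein response is the reaction of a cell to misfolded protein in the ER. PERK, the kinase encoded by Eif2ak3, phosphorylates eIF2alpha, which slows translation in general and raises translation of ATF4. Other kinases that sense amino acid shortage or haem deficiency act on the same site, so ATF4 can also act without ER stress. IRE1 splices Xbp1 mRNA, and spliced XBP1 together with cleaved ATF6 switches on chaperones such as BiP, the product of Hspa5. Hepatocytes make and secrete most plasma proteins and carry a large ER. Both the translation of Atf4 and the splicing of Xbp1 are invisible in gene counts, so the Atf4 and Xbp1 values below are total mRNA only.

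Elements known from this pathway were searched for in the promoters of the 10 genes. The 4 promoters below are shown because they hold a core match to the element through which ATF4, or ATF6 and XBP1, are known to act. They come from RefSeq (build GRCr8) and run 5′ to 3′ on the strand of the gene, with the matched element in capitals.
Trib3, chr3:161275534-161275594, minus strand: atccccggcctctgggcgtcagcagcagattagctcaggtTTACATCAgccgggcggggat
Chac1, chr3:126795924-126796011, plus strand: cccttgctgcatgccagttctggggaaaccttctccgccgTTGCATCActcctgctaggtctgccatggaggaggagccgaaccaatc
Hspa5, chr3:38452933-38453015, plus strand: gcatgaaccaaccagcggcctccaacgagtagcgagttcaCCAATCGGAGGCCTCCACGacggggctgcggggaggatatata
Xbp1, chr14:84604518-84604616, plus strand: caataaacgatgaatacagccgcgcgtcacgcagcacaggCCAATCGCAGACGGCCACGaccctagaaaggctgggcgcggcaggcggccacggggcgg
In Trib3 and Chac1 the capitals are the C/EBP-ATF composite TGATGNAA (N is any base), read on the opposite strand, 21 to 14 bases before the start of Trib3 and 167 to 160 bases before that of Chac1. In Hspa5 and Xbp1 they are the ER stress response element, CCAAT and CCACG parted by 9 bases of any kind, 43 to 25 and 65 to 47 bases before the start.

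A match was found in 4 of the 10 genes. Windows from 250 bases before to 50 bases after the start were searched on both strands. TGATGNAA was found in 1332 of 33469 promoters (3.98%), and in 2 of the 10 genes, both of them ATF4 targets. The ER stress response element was found in 22 of 33469 promoters (0.0657%), and again in 2 of the 10, both of them ER genes. The related unfolded protein response element TGACGTGG was in 199 promoters (0.595%) and in none of the 10. Among other genes of the pathway, TGATGNAA was held by 7 of 11 promoters of tRNA-charging enzymes and 7 of 29 of other ATF4 targets, and also by Herpud1 (1 of 13 ER-associated degradation genes) and Ppp1r15b (1 of 18 stress sensors and signalling genes). The promoters of 6 of 20 ER chaperones and folding enzymes and 1 of 13 ER-associated degradation genes (Derl3) held the ER stress response element (Calr, Canx, Creld2, Dnajc3, Ero1b and Hsp90b1). TGACGTGG was held by 3 of the 20 chaperones and folding enzymes (Dnajc10, Hyou1 and Txndc11) and 1 of the 13 degradation genes (Vcp). A match describes the letters of this window only and is not a measured binding site.

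Sequencing depth was 11410459 to 27664338 counts per furan rat (median 16318228) and 11084613 to 50047098 per 3-methylfuran rat (median 14885566), after the 2 or 3 runs of each rat were summed. Levels are counts per 1000000 counts of the library (CPM) after TMM scaling, which sets libraries to a common scale from the bulk of genes. Fold changes are log2 values from edgeR's quasi-likelihood test with their standard error (SE), and a gene is called when its p, adjusted by the Benjamini-Hochberg method over all genes tested, is below 0.05. No gene lengths were used, so levels are compared between groups and never between genes.

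At the highest dose of either compound, Asns rose while Sesn2, Hspa5 and Xbp1 fell. The 10 genes therefore did not move in 1 direction. At furan 2.0 mg/kg bw/day, 2 of the 10 rose (Asns and Ddit4) and 5 fell (Atf4, Chac1, Sesn2, Hspa5 and Xbp1). Of all 12727 genes tested there, 24.0% rose and 22.5% fell, so the share that rose was near that of all genes and the share that fell was above it. At 3-methylfuran 1.0 mg/kg bw/day, 1 rose (Asns) and 4 fell (Ddit3, Sesn2, Hspa5 and Xbp1), where 21.2% of 11930 genes rose and 22.5% fell. Lower furan doses called a single gene of the 10, Eif2ak3, which was higher than in controls at 0.03, 0.12 and 0.5 mg/kg bw/day and not called at 2.0.

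**Figure D1:**
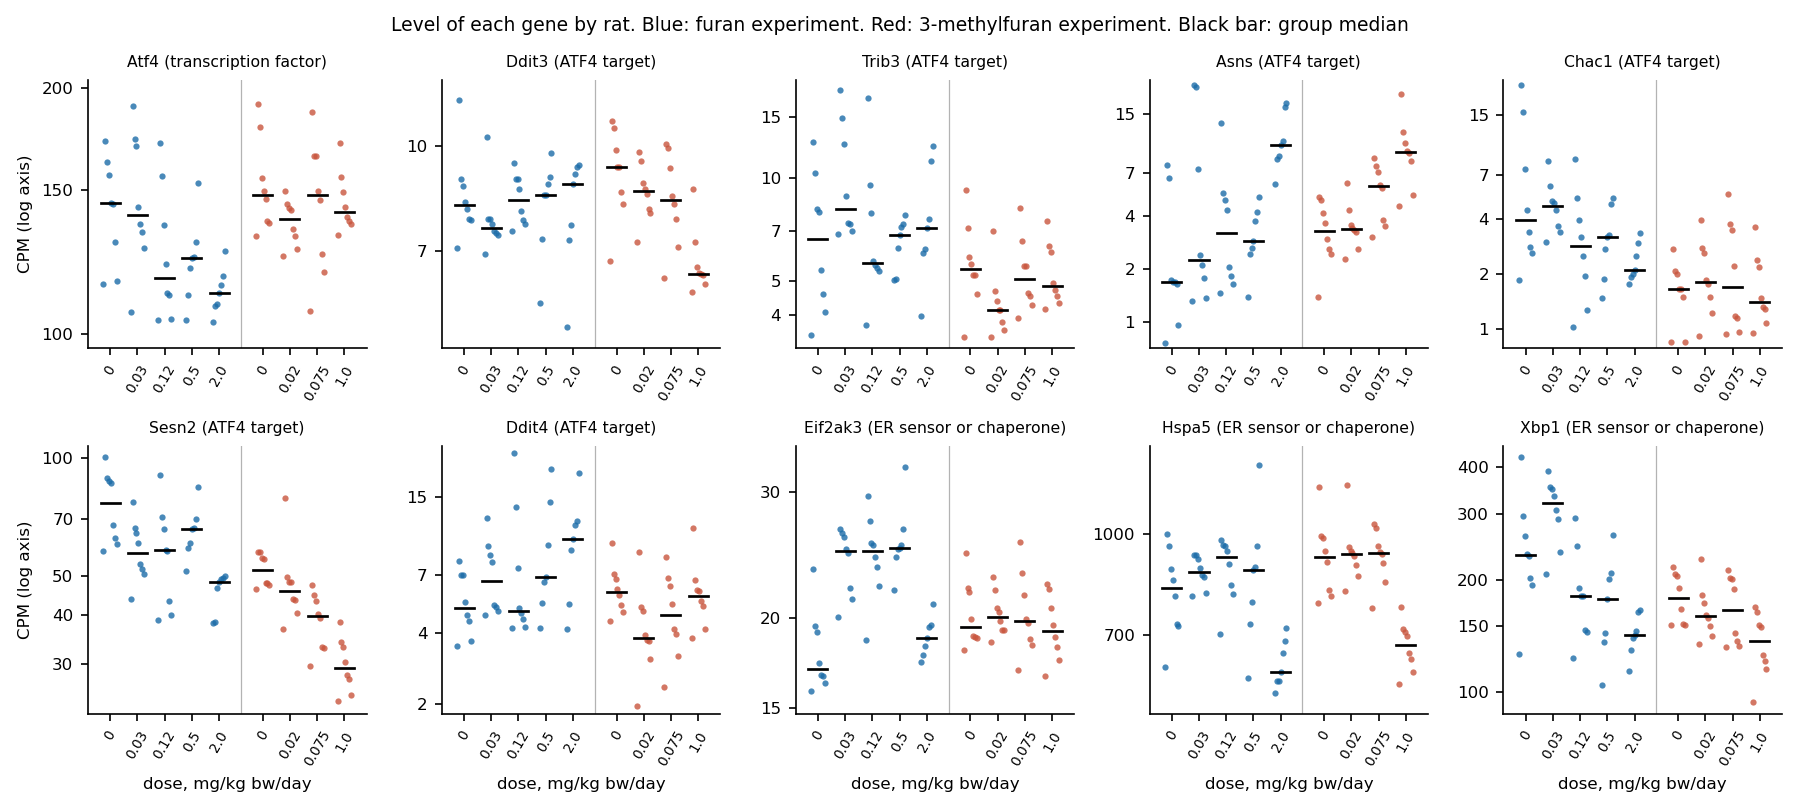
Level of each of the 10 genes in every rat (CPM, log axis) by dose in mg/kg bw/day, with furan rats in blue, 3-methylfuran rats in red and a black bar at the group median. By group medians, Asns is highest and Sesn2 and Hspa5 are lowest at the top dose of either compound, and Eif2ak3 is highest at the 3 lower furan doses. Of single rats, 2 at furan 0.03 (21.9 and 21.3 CPM) exceed every Asns level at furan 2.0.

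Atf4, the transcription factor at the centre of the set, was not called higher at any dose. Its lowest, median and highest levels were 115, 144 and 172 CPM in furan controls and 103, 112 and 126 CPM at furan 2.0. All 7 rats of that dose lay below the control mean and 5 of them lay below the lowest control, though the ranges overlapped. The difference was -0.33 ± 0.11 (log2, SE, 8 and 7 rats; edgeR adjusted p = 0.0120). With 3-methylfuran the levels were 132, 148 and 191 CPM in controls and 132, 141 and 171 CPM at 1.0, and Atf4 was not called (log2 difference -0.07 ± 0.09, adjusted p = 0.515). Medians at the lower furan doses were 139.6, 117 and 124 CPM at 0.03, 0.12 and 0.5, and none was called.

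Among the ATF4 targets, Asns, which makes asparagine from aspartate and glutamine, was the one that rose with both compounds. Its levels were 0.767, 1.69 and 7.77 CPM (lowest, median, highest) in furan controls, and 6.08, 10.1 and 17.4 CPM at furan 2.0. At that dose 6 of the 7 rats lay above the highest control. The rise was 1.97 ± 0.58 (log2; adjusted p = 0.00585), or 3.91-fold. In the 3-methylfuran experiment Asns had levels of 1.39, 3.30 and 5.10 CPM in controls and 4.55, 9.17 and 19.5 CPM at 1.0, with 7 of 8 dosed rats above the highest control. The rise there was 1.52 ± 0.28 (adjusted p = 4.91e-05), or 2.87-fold. The median at 3-methylfuran 0.075 lay between them at 5.86 CPM (log2 difference 0.75 ± 0.28, adjusted p = 0.209), which was not called.

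Asns was also high in a few rats of other furan groups. Furan controls split into a pair at 6.52 and 7.77 CPM and 6 rats between 0.767 and 1.74 CPM. At furan 0.03, 3 rats had 21.9, 21.3 and 7.32 CPM while the other 5 had 1.32 to 2.40 CPM. At 0.12, 1 rat had 13.5 CPM. Single rats of these groups thus reached the range of the rats at furan 2.0, where all 7 were above the control mean. The same pair of controls was high in Chac1 and Trib3, and the same 3 rats of the 0.03 group were the highest of their group in Trib3 (18.0, 14.9 and 12.6 CPM). Without that pair of controls, left out after the data were seen, the Asns rise at furan 2.0 was 2.96 (adjusted p = 0.000442).

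Chac1, an enzyme that degrades glutathione, fell at furan 2.0, and that call rested on the same pair of controls. Levels were 1.85, 3.96 and 21.98 CPM in controls, where the second highest was 15.6 CPM, and 1.76, 2.12 and 3.39 CPM at furan 2.0. The dosed rats lay in the lower part of the control range, with 1 of 7 below the lowest control. The difference was -1.66 ± 0.44 (adjusted p = 0.00219), and without the pair it was -0.67 (adjusted p = 0.132). With 3-methylfuran the medians were 1.66 CPM in controls and 1.40 CPM at 1.0, with no call (0.09 ± 0.38, adjusted p = 0.866).

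Sesn2, a sestrin that restrains mTORC1 and is also a p53 target, was the ATF4 target that separated the groups most cleanly. Levels were 58.0, 76.9 and 100.2 CPM in furan controls and 38.1, 48.4 and 50.1 CPM at furan 2.0. The groups did not overlap. Sesn2 fell by 0.74 ± 0.15 on the log2 scale (adjusted p = 0.000109). The 3-methylfuran groups gave 46.4, 51.8 and 57.7 CPM in controls, 36.7, 46.003 and 79.1 CPM at 0.02, 29.6, 39.6 and 47.5 CPM at 0.075, and 24.1, 29.3 and 38.2 CPM at 1.0. Each median was lower than that of the dose before, and at 1.0 every rat lay below every control. The fall at 1.0 was -0.80 ± 0.12 (adjusted p = 2.55e-06). At 0.075 the difference of -0.43 ± 0.12 was not called (adjusted p = 0.0623), while DESeq2 on the same counts called it (adjusted p = 0.0249), as did the authors' deposited table (adjusted p 0.0269).

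The other 3 targets were called at the highest dose of 1 compound (Ddit4 and Ddit3) or at no dose (Trib3). Ddit4 (REDD1), another inhibitor of mTORC1, rose at furan 2.0 from 3.51, 5.07 and 8.04 CPM to 4.14, 9.90 and 19.0 CPM. Of the 7 dosed rats, 5 lay above the highest control and 2 lay below the control mean. Its rise of 0.87 ± 0.37 (adjusted p = 0.0486) was called in only 5 of the 15 fits that each left out 1 rat. Ddit3, which encodes the pro-apoptotic factor CHOP, was 7.08, 8.17 and 11.7 CPM in furan controls and 5.41, 8.80 and 9.38 CPM at furan 2.0, with no call (-0.07 ± 0.11, adjusted p = 0.622). With 3-methylfuran Ddit3 went from 6.77, 9.30 and 10.9 CPM to 6.10, 6.48 and 8.65 CPM, and 6 of 8 dosed rats lay below the lowest control. That fall was -0.43 ± 0.10 (adjusted p = 0.000409). Trib3, a pseudokinase that feeds back on ATF4 and CHOP, had furan medians of 6.66, 8.12, 5.67, 6.83 and 7.13 CPM from control to 2.0, and 3-methylfuran medians of 5.43, 4.14, 5.09 and 4.84 CPM.

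Over the 6 targets together, 2 rose and 2 fell at furan 2.0, with a median log2 difference of 0.04 against 0.02 over all genes. At 3-methylfuran 1.0, 1 rose and 2 fell, with a median of -0.07 against -0.00 over all genes. As a group the ATF4 targets thus had a median near that of all genes, with single members on either side.

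Among the ER genes, Hspa5 fell at the highest dose of both compounds. BiP, its product, is the most abundant chaperone of the ER and holds the stress sensors inactive. Hspa5 levels were 627, 827 and 1000.3 CPM in furan controls, with medians of 875, 921 and 881 CPM at 0.03, 0.12 and 0.5. At furan 2.0 they were 571, 616 and 719 CPM, so 4 of 7 rats lay below the lowest control and all 7 below the control mean. The difference was -0.37 ± 0.10 (adjusted p = 0.00319). With 3-methylfuran the control levels were 785, 923 and 1179 CPM and those at 1.0 were 589, 677 and 774 CPM, without overlap. Hspa5 fell there by 0.46 ± 0.08 (adjusted p = 1.18e-05), while the medians at 0.02 and 0.075 were 931 and 935 CPM.

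Xbp1, whose protein drives chaperone and ER-degradation genes once its mRNA is spliced, fell as well. Total Xbp1 was 127, 232 and 427 CPM in furan controls and 114, 142 and 165 CPM at furan 2.0. The ranges overlapped, and all 7 dosed rats lay below the control mean. The difference was -0.79 ± 0.20 (adjusted p = 0.00134). For 3-methylfuran the levels were 151, 178 and 216 CPM in controls and 94.0, 137.2 and 168 CPM at 1.0, a difference of -0.40 ± 0.13 (adjusted p = 0.0111). At furan 0.03 the median stood highest at 322 CPM, with no call (0.33 ± 0.19, adjusted p = 0.628).

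Eif2ak3, which encodes the PERK kinase, was called at the 3 lower furan doses and not at the highest. Levels were 15.8, 17.0 and 23.5 CPM in controls, 20.1, 24.8 and 26.7 CPM at 0.03, 18.6, 24.9 and 29.6 CPM at 0.12, and 21.9, 25.1 and 32.5 CPM at 0.5. At 2.0 they were 17.4, 18.8 and 20.9 CPM, back inside the control range. Every rat of the 3 lower doses was above the control mean, and 5 of 8, 6 of 8 and 6 of 7 were above the highest control. The log2 differences were 0.41 ± 0.08 at 0.03 (adjusted p = 0.0469), 0.44 ± 0.08 at 0.12 (adjusted p = 0.00256) and 0.52 ± 0.09 at 0.5 (adjusted p = 0.000849). At 2.0 the difference was 0.06 ± 0.09 (adjusted p = 0.574).

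The background for these calls was small. At furan 0.03, 0.0471% of genes were called higher and 0.0236% lower, at 0.12 the shares were 1.02% and 0.919%, and at 0.5 they were 1.50% and 1.66%. Eif2ak3 was 1 of 6 genes called higher at 0.03, where its adjusted p lay close to the threshold and the call was kept in 6 of 16 fits that each left out 1 rat. At 0.12 and 0.5 the call was kept in every such fit. The 3 comparisons share the same 8 controls. In the authors' deposited table, Eif2ak3 had fold changes of 1.29, 1.32, 1.40 and 1.04 from 0.03 to 2.0, of which the first 3 had adjusted p-values of 0.00415, 0.000166 and 1.00e-05.

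A direct contrast of furan 2.0 with furan 0.5, added after the data were seen, avoids the controls. Eif2ak3 was -0.45 ± 0.09 lower at 2.0 than at 0.5 (adjusted p = 0.000137), and the 7 rats of the higher dose all lay below the 7 of the lower. Hspa5 differed by -0.46 ± 0.11 (adjusted p = 0.00100), Sesn2 by -0.51 ± 0.15 (adjusted p = 0.00929) and Asns by 1.80 ± 0.60 (adjusted p = 0.0198). So 1 of the 10 was higher and 3 were lower, where 15.6% of all genes were higher and 16.5% lower. With 3-methylfuran the Eif2ak3 medians were 19.4, 20.1, 19.9 and 19.2 CPM from control to 1.0, and no dose was called.

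**Figure D2:**
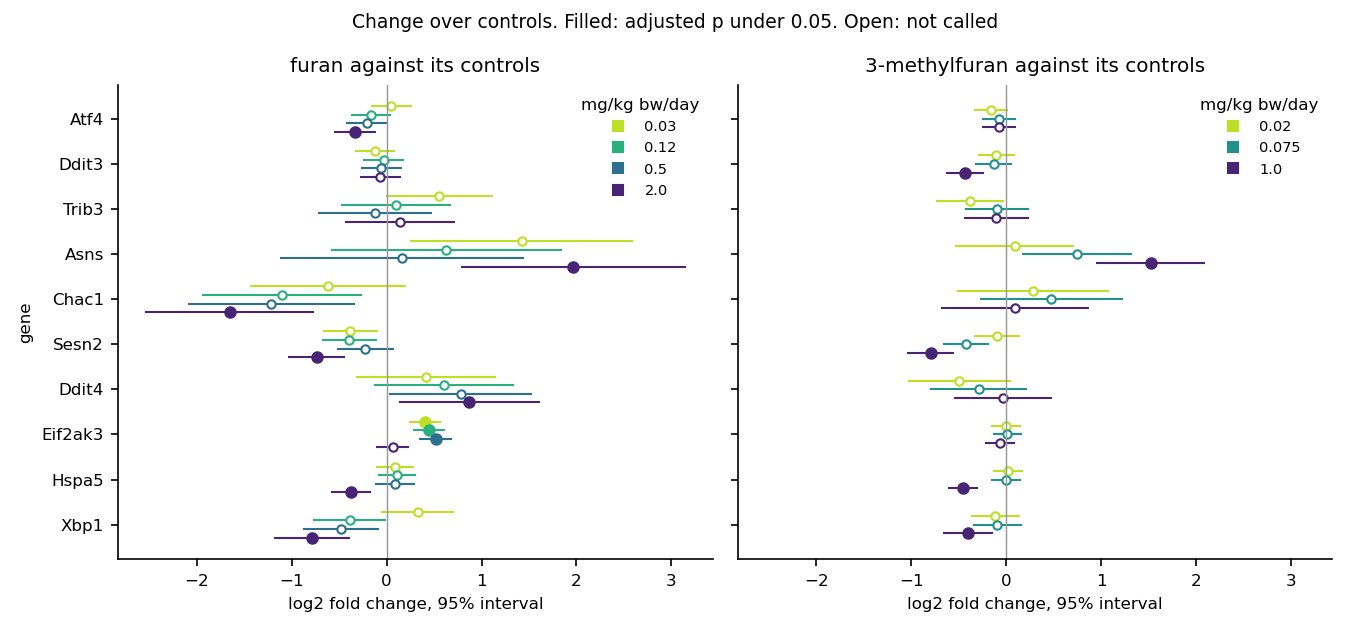
Log2 difference from controls with its 95% interval for the 10 genes, by dose of furan (left) and 3-methylfuran (right), with filled points where the adjusted p was below 0.05. Filled points lie on both sides of 0 at the highest doses, from -1.66 for Chac1 to 1.97 for Asns with furan, and Eif2ak3 is filled at the 3 lower furan doses.

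The lower doses of 3-methylfuran gave no calls among the 10 by edgeR. At 0.02, where 0.0168% of genes were called higher and 0.0168% lower, 1 gene (Trib3) had an unadjusted p below 0.05. At 0.075, where the shares were 0.436% and 0.930%, 2 genes had (Asns and Sesn2). DESeq2 and limma voom called none at 0.02 and 1 at 0.075, Sesn2.

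The ATF4 targets were also set against the ER genes within each rat. The gap is the mean log2 CPM of the 6 targets minus that of the 3 ER genes, and only its change between groups is read, since it compares genes of unlike length. Its median was -4.47 in furan controls (range -4.77 to -3.36), -4.64, -4.58 and -4.33 at 0.03, 0.12 and 0.5, and -3.64 at 2.0 (range -4.37 to -3.12). The top dose lay 0.83 above controls by the medians, and the ranges overlapped. For 3-methylfuran the gap moved from -4.52 (range -4.61 to -4.26) to -4.17 (range -4.60 to -3.72), a change of 0.36. The change was 1.12 and 0.36 when Chac1 was left out. By group means the gap went from -4.26 to -3.70 with furan and from -4.50 to -4.17 with 3-methylfuran. The median log2 difference at furan 2.0 was 0.04 for the targets and -0.37 for the ER genes. At 3-methylfuran 1.0 these medians were -0.07 and -0.40. Asns had the largest rise of the targets (1.97 and 1.52), and a gap without Asns is not given. The gap is thus not read as a rise of the targets as a group.

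Other ATF4 targets were drawn from a list of amino acid and related genes. At furan 2.0, 11 of 29 rose and 5 fell, with a median of 0.08, where 24.0% of all genes rose and 22.5% fell. Slc7a11, the cystine importer, was called higher (adjusted p = 1.09e-05), but its levels of 0 to 0.275 CPM in controls and 0.0552 to 7.35 CPM at furan 2.0 overlapped and began near 0, so no fold is given. A large rise was that of Phgdh, the first enzyme of serine synthesis (4.23 ± 0.67, adjusted p = 4.47e-06). Phgdh went from 0.337 to 7.22 CPM in controls to 30.5 to 45.1 CPM at furan 2.0, without overlap. Slc7a1, an importer of cationic amino acids, also rose (2.57 ± 0.49, adjusted p = 5.54e-05), from low levels. Its ranges of 0.156 to 0.958 CPM in controls and 0.718 to 6.11 CPM at furan 2.0 overlapped. The largest falls were in Cebpb (-1.26), a partner of ATF4 on composite sites, Cbs (-0.78), which channels homocysteine toward cysteine, and the amino acid transporter Slc38a2 (-0.52).

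At 3-methylfuran 1.0, 7 of 27 genes of that list rose and 7 fell, with a median of -0.02, near the shares of all genes (21.2% higher and 22.5% lower). Phgdh (4.93 ± 0.43, adjusted p = 2.13e-10), Slc7a1 (1.76 ± 0.38, adjusted p = 0.000231) and the mitochondrial folate enzyme Mthfd2 (1.54 ± 0.32, adjusted p = 0.000220) rose most. Slc7a1 had 0.0664 to 0.933 CPM in controls and 0.650 to 2.83 CPM at 1.0. Mthfd2 had 0.664 to 1.56 CPM and 0.961 to 6.88 CPM, so both genes overlapped their controls at low levels. Phgdh, at 0.133 to 1.92 CPM and 14.6 to 49.6 CPM, did not. The hormone gene Fgf21 (-1.21), the transcription factor gene Atf5 (-0.96) and Cebpb (-0.88) fell most. When only the first run of each rat was used, 2 rose and 7 fell.

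Aminoacyl-tRNA synthetases, many of which ATF4 induces, showed small shifts. At furan 2.0, 6 of 12 rose and none fell, where 24.0% of all genes rose and 22.5% fell. Gars (0.38), Iars (0.36) and Sars (0.30) led, and the median was 0.17. At 3-methylfuran 1.0, Gars rose (0.23) and Yars fell (-0.22), and the other 10 were not called. All genes there had shares of 21.2% higher and 22.5% lower.

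ER chaperones and folding enzymes fell more often than they rose at the highest doses. At furan 2.0, 12 of 21 fell and 1 rose, with a median of -0.20, where 22.5% of all genes fell and 24.0% rose. Sdf2l1, a partner of BiP, fell by 0.71 ± 0.10 (adjusted p = 7.49e-07), the prolyl isomerase Fkbp2 by 0.60 ± 0.06 (adjusted p = 2.03e-09) and the disulfide isomerase Pdia4 by 0.44 ± 0.10 (adjusted p = 0.000503), while the reductase Dnajc10 rose by 0.21 ± 0.09 (adjusted p = 0.0481). At 3-methylfuran 1.0, 16 of 21 fell and 1 rose, with a median of -0.39, where 22.5% of all genes fell and 21.2% rose. Sdf2l1 fell by 1.09 ± 0.10 (adjusted p = 4.04e-11), Manf, a secreted ER stress protein, by 0.72 ± 0.09 (adjusted p = 5.78e-08) and Fkbp2 by 0.70 ± 0.06 (adjusted p = 5.12e-12). Dnajc10 was again the gene that rose (0.35).

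ER-associated degradation, which draws misfolded proteins out of the ER to the proteasome, fell alongside. At furan 2.0, 9 of 13 genes fell and 1 rose, with a median of -0.21, where 22.5% of all genes fell and 24.0% rose. Sel1l, a scaffold of the degradation complex, fell by 0.52, Selenok by 0.40 and Derl1 by 0.32, and Edem2 rose (0.25). At 3-methylfuran 1.0, 9 of 13 fell and none rose, with a median of -0.22, where 22.5% of all genes fell and 21.2% rose. Edem1 (-0.83), Sel1l (-0.49) and the ubiquitin ligase gene Syvn1 (-0.47) led these falls.

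Among stress sensors and their signalling partners, 3 of 19 rose and 4 fell at furan 2.0, which is no more than the shares of all genes (24.0% and 22.5%). The pro-apoptotic gene Bcl2l11 (0.71), Eif2s1 (0.42), which encodes eIF2alpha itself, and the protease gene Mbtps2 (0.30) rose, and the eIF2alpha phosphatase subunit Ppp1r15b (-0.50), the haem-regulated kinase Eif2ak1 (-0.34) and Creb3l3 (-0.32) fell furthest. At 3-methylfuran 1.0, 6 rose and 7 fell, where 21.2% and 22.5% of all genes did. Casp12 (0.59), Creb3l2 (0.53) and the amino acid sensor kinase Eif2ak4 (0.49) led the rises, and Creb3l1 (-0.87), Ern1, which encodes IRE1 (-0.43), and Creb3l3 (-0.41) led the falls. Of relatives of the 10 genes, 1 of 7 rose and 3 fell at furan 2.0, and 1 rose and 2 fell at 3-methylfuran 1.0. Sesn3, a sestrin like Sesn2, rose with both (0.45 and 0.74) where Sesn2 fell.

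**Figure D3:**
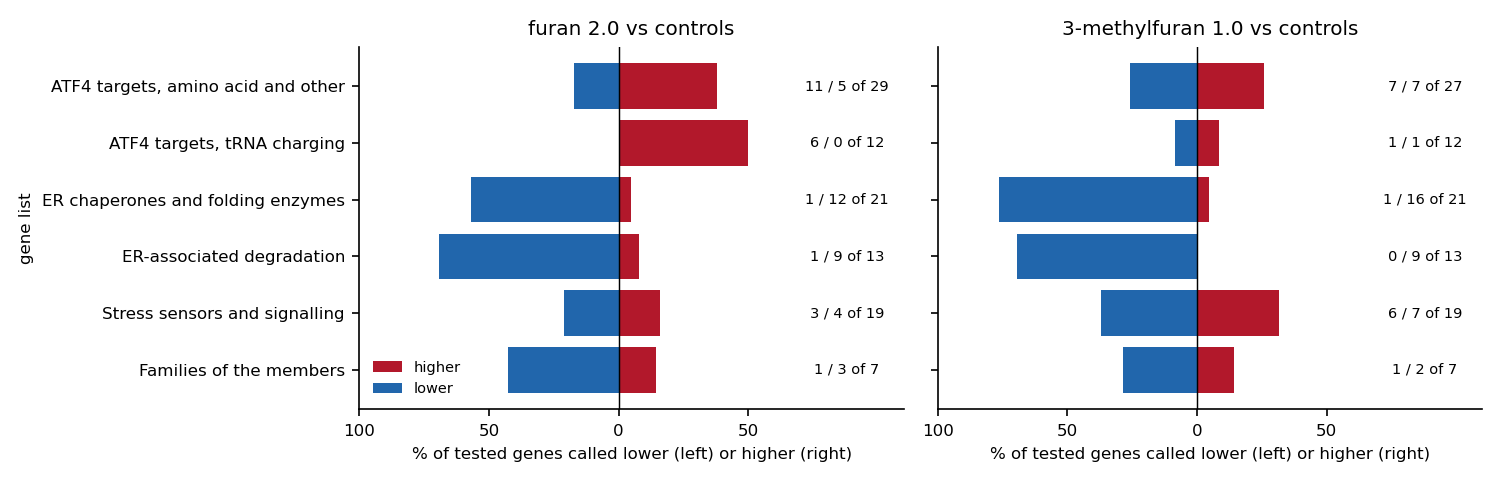
Percent of tested genes of each list called lower (blue, left) or higher (red, right) at furan 2.0 and 3-methylfuran 1.0 mg/kg bw/day against controls, with the counts higher / lower of tested at the right. Chaperones (12 of 21 and 16 of 21) and ER-associated degradation genes (9 of 13 and 9 of 13) lie mostly to the left. The amino acid list of ATF4 targets lies on both sides. The tRNA-charging list lies only to the right at furan 2.0 (6 of 12) and has 1 gene on each side at 3-methylfuran 1.0.

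At furan 0.12 and 0.5, where Eif2ak3 was higher, Edem1 and Dnajb9 rose too. They are named here after their values were seen. Edem1, which marks misfolded glycoproteins for degradation, had levels of 242, 294 and 428 CPM in controls, 309, 455 and 803 CPM at 0.03, 404, 665 and 994 CPM at 0.12, and 383, 570.4 and 924 CPM at 0.5, with 281, 316 and 454 CPM at 2.0. It rose by 1.15 ± 0.21 at 0.12 (adjusted p = 0.00196) and 1.03 ± 0.21 at 0.5 (adjusted p = 0.00466). It was not called at 0.03 (0.77 ± 0.21, adjusted p = 0.173) or at 2.0 (0.19 ± 0.21, adjusted p = 0.491). Dnajb9, a co-chaperone of BiP that depends on IRE1 and XBP1, had medians of 32.3, 46.2, 53.7, 63.04 and 34.8 CPM from control to 2.0. It rose by 0.62 ± 0.16 at 0.12 (adjusted p = 0.0318) and 0.74 ± 0.16 at 0.5 (adjusted p = 0.00871), and was not called at 0.03 (0.40 ± 0.16, adjusted p = 0.414).

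The chaperone Hsp90b1 was the only other chaperone of the list called at 0.12 (0.28 ± 0.08, adjusted p = 0.0491). From 0.5 to 2.0, Edem1 changed by -0.85 (adjusted p = 0.00349) and Dnajb9 by -0.81 (adjusted p = 0.000398), in the direction of Eif2ak3. In that same contrast 15 of 21 chaperones were lower and 1 was higher, and 9 of 13 ER-associated degradation genes were lower. The shares of all genes were 16.5% lower and 15.6% higher. Furan at 0.5 and at 2.0 thus differed in most chaperones tested. With 3-methylfuran, Edem1 medians went down with dose, at 284, 253, 198 and 154 CPM, and those of Dnajb9 at 32.9, 29.8, 28.5 and 22.8 CPM, and both genes fell at 1.0 (-0.83, adjusted p = 4.54e-06, and -0.50, adjusted p = 0.0184).

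**Figure D4:**
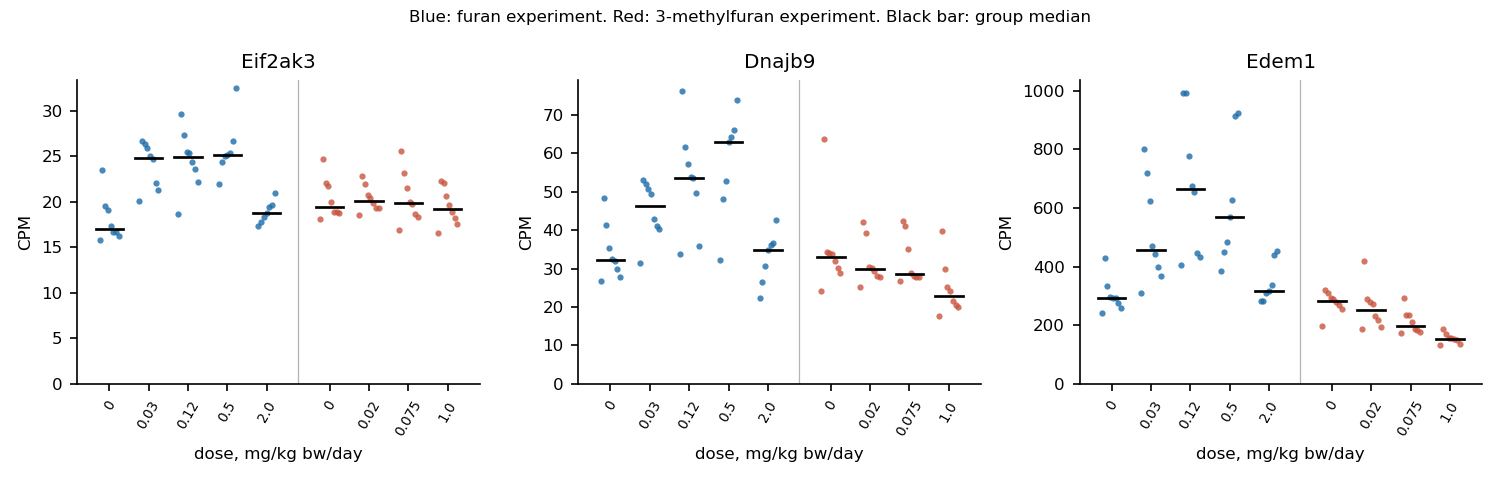
Levels of Eif2ak3, Dnajb9 and Edem1 (CPM, axis from 0) in every rat by dose in mg/kg bw/day, with furan in blue, 3-methylfuran in red and a black bar at the group median. Furan medians stand above control at 0.03, 0.12 and 0.5 and near control at 2.0 (18.8 CPM for Eif2ak3 against 17.0 in controls), whereas 3-methylfuran medians of Edem1 and Dnajb9 decline from control to 1.0.

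Whether the compounds differed was tested as the furan effect minus the 3-methylfuran effect, each over its own controls. Doses differ, and furan 2.0 and 3-methylfuran 1.0 are set together only as the highest of each. None of the 10 genes was called by edgeR (3.52% of 12941 genes were called higher and 3.72% lower), 2 had an unadjusted p below 0.05 (Ddit3 and Chac1), and DESeq2 called Chac1 (-1.77, adjusted p = 0.0370). The intervals show how much difference the data allow. For Hspa5 the difference was 0.07 with a 95% interval of -0.19 to 0.34, for Sesn2 0.05 (-0.34 to 0.44), for Asns 0.44 (-0.89 to 1.77), and for Chac1 -1.75 (-2.96 to -0.55, adjusted p = 0.0605). A missed threshold does not show that the compounds act alike.

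The same difference was taken for furan 0.5 and 3-methylfuran 1.0, again at unlike doses. Of the 10 genes, 3 had a higher furan effect, where 10.8% of genes were higher and 10.6% lower. They were Eif2ak3 (0.57 ± 0.12, adjusted p = 0.000196), Hspa5 (0.54 ± 0.13, adjusted p = 0.00174) and Sesn2 (0.56 ± 0.20, adjusted p = 0.0316). Against controls, Hspa5 (0.09, adjusted p = 0.709) and Sesn2 (-0.23, adjusted p = 0.456) were not called at furan 0.5, and both fell at 3-methylfuran 1.0. The furan effect was higher in 15 of 21 chaperones and lower in 1. Against controls, 1 of these 21 was called at furan 0.5, while 16 fell at 3-methylfuran 1.0. A higher furan effect here is therefore not a rise with furan by itself. Genes outside the 10 are named here after their values were seen. Fgf21 rose at furan 2.0 (1.36 ± 0.40, adjusted p = 0.00573) and fell at 3-methylfuran 1.0, with a difference of 2.56 ± 0.51 (adjusted p = 0.00104). Its levels were 2.58 to 10.7 CPM in furan controls and 3.87 to 28.1 CPM at furan 2.0, which overlapped. With 3-methylfuran they were 10.2 to 22.3 CPM in controls and 4.07 to 13.2 CPM at 1.0. The controls of the experiments thus had unlike levels of Fgf21. Atf5 and Edem1 also differed between the top doses (0.74 ± 0.16, adjusted p = 0.00236, and 1.01 ± 0.26, adjusted p = 0.00947). So did the tRNA-charging gene Wars (0.32, adjusted p = 0.0179). The difference went the other way in Casp12 (-0.68, adjusted p = 0.00739), Eif2ak4 (-0.38, adjusted p = 0.0105) and Chac2 (-0.42, adjusted p = 0.0222).

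Within dose groups, the genes did not vary as 1 unit from rat to rat. After the mean of each dose group was subtracted from log2 CPM, the 45 pairs among the 10 genes had Pearson correlations from -0.45 (Ddit4 with Hspa5) to 0.57 (Trib3 with Asns), with a median of 0.06 over 70 rats. These correlations are descriptions: both genes of a pair come from the same library and share its scaling. Across all genes tested, the closest to Hspa5 were Hyou1, another ER chaperone (Pearson r = 0.92, Spearman rho = 0.87), and Manf (r = 0.86). Asns was closest to Phgdh (r = 0.90, rho = 0.90) and Psat1 (r = 0.88), the first and the following enzyme of serine synthesis. Eif2ak3 was closest to Dnajb9 (r = 0.66, rho = 0.66) and the splicing kinase Prpf4b (r = 0.65).

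The first pair of each of these 3 genes was also followed in each experiment. Hspa5 with Hyou1 gave r = 0.95 over 38 furan rats and 0.87 over 32 3-methylfuran rats, Asns with Phgdh 0.93 and 0.88, and Eif2ak3 with Dnajb9 0.64 and 0.69. Without the 2 rats farthest from the median of the first gene, r was 0.89, 0.88 and 0.70. Partners of the other 7 genes had r from 0.50 to 0.77. Those of Xbp1 were Birc2 (0.77) and Ammecr1l (0.67), those of Atf4 Slc17a9 (0.75) and Dcaf5 (0.70), those of Trib3 Tmem86a (0.62) and Sbno2 (0.62), and those of Ddit4 Nr0b2 (0.59) and Spaca6 (0.56). Those of Chac1 were Naif1 (0.59) and Kctd13 (0.56), those of Sesn2 G6pc (0.58) and Grb7 (0.51), and those of Ddit3 G0s2 (0.54) and Csrnp1 (0.50). None of the partners of Atf4 was among its listed targets.

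**Figure D5:**
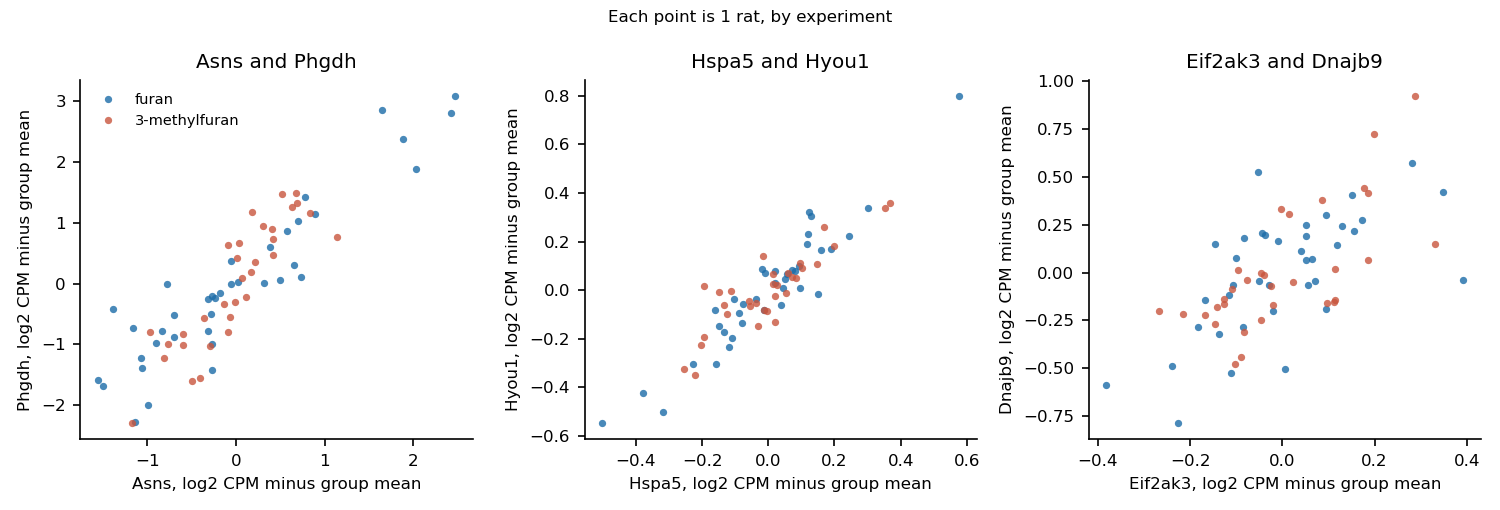
Log2 CPM minus the mean of the dose group for Asns and Phgdh, Hspa5 and Hyou1, and Eif2ak3 and Dnajb9, with 1 point per rat (blue furan, red 3-methylfuran). Points follow a line most closely for Hspa5 and Hyou1 (r = 0.92), and in the Asns panel 5 furan rats stand above the rest.

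Markers of other liver cells moved at the same doses, and their part in these results was not tested. The shares of all genes were 24.0% higher and 22.5% lower at furan 2.0, and 21.2% and 22.5% at 3-methylfuran 1.0. In bulk liver, fewer cells of a type and less RNA per cell cannot be told apart. Summed CPM of 7 hepatocyte markers was 183960 to 210073 in furan controls and 111470 to 169914 at furan 2.0, where 6 of the 7 fell and 1 rose. For 3-methylfuran it was 209035 to 232054 in controls and 174629 to 226387 at 1.0, with 5 lower and 1 higher. Bile duct markers went from 7.21 to 14.2 CPM up to 18.7 to 72.1 CPM at furan 2.0 (6 of 7 rose), and from 8.94 to 13.5 up to 22.6 to 33.2 CPM at 3-methylfuran 1.0 (2 of 4 tested rose and 1 fell).

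Of stellate cell and myofibroblast markers 5 of 7 rose and 1 fell at furan 2.0, with summed levels of 187 to 333 CPM in controls and 192 to 901 CPM at 2.0. At 3-methylfuran 1.0 the summed range was 126 to 185 CPM against 146 to 163 CPM in controls. Of macrophage markers 1 of 7 rose at furan 2.0, and of sinusoidal endothelial markers 2 of 5 fell at furan 2.0 and 1 of 5 at 3-methylfuran 1.0. The macrophage count and the endothelial count with 3-methylfuran were no higher than the shares of all genes. Plasma cells, which express much Xbp1, left little trace: Jchain did not exceed 3.69 CPM in any rat. Pancreatic acinar cells also carry a large ER, and their marker Cpa1 ranged from 0 to 6.49 CPM in furan controls, 0 to 0.111 CPM at 0.5 and 0 to 0.196 CPM at 2.0. Cpa1 was called lower at both doses. The other acinar marker tested, Cela1, had levels of 11.1, 14.5 and 23.2 CPM in furan controls, 11.4, 12.9 and 17.8 CPM at 0.5, and 8.02, 10.2 and 13.6 CPM at 2.0. It was not called at 0.5 (-0.11, adjusted p = 0.756) and fell at 2.0 (-0.49, adjusted p = 0.00699). With 3-methylfuran its medians were 17.5 CPM in controls and 18.8 CPM at 1.0, with no call (0.09, adjusted p = 0.612). Cpa1 did not exceed 0.0721 CPM in those controls. Cpb1, an acinar marker too low to be tested, had medians of 0.220 CPM in furan controls and 0.303 CPM at furan 2.0. Of 10 acinar markers listed, 2 were tested in the furan fit and 1 in the 3-methylfuran fit. Any part of acinar tissue in the levels of Hspa5 and Xbp1 was not tested.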

How the data were processed

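Livers of 70 rats in 9 groups were sequenced in 172 runs. The deposited values are gene counts, which the authors made with STAR 2.7.1a and featureCounts 2.0.0 on Rnor 6.0, per the submitters' processing notes. How strand and reads matching several genes were handled, and which annotation release was used, is not given in the sources used here. Beside the counts, the authors deposited comparison tables, which hold a signed fold change (furan), a fold ratio (3-methylfuran) and adjusted p-values, and DESeq2 1.26.0 is named in the submitters' processing notes. Symbols were taken from those tables.

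Here the runs of each rat were summed, since runs differed by little more than sampling noise (chi-square per degree of freedom 0.985 to 1.07, against at least 6.15 between rats of a group). Replicates are separate rats. Genes passing edgeR's filterByExpr (minimum count 10) were tested with edgeR 4.0.16 (quasi-likelihood, TMM, R 4.3.3), 1 fit per experiment with 1 coefficient per dose group, and 1 fit over all 70 rats for differences between compounds. TMM factors were 1.02 to 1.40 at furan 2.0 against 0.894 to 0.963 in its controls, and 1.05 to 1.23 at 3-methylfuran 1.0 against 0.919 to 0.974. Log2 CPM used a prior count of 0.5. Figures were drawn with matplotlib 3.10.9.

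The 10 genes and all lists were chosen with earlier results of these data known. Named are the 10 genes, up to 3 called genes per list and direction at the highest doses with at least 1 CPM in the higher group, and the 2 genes most like each of the 10; others were chosen after their values were seen. Of 118 list genes 12 had no matching symbol, and of 53 marker genes 7 had none. Alternatives were DESeq2 1.42.0, limma voom 3.58.1, no low-count filter, the first run only, only the groups compared, other prior counts and leaving out rats. Scripts were tested on simulated data.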

Additional observations from a re-analysis of the deposited data

Results flagged for a closer look

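Within groups, the highest rat of 10 of the 90 gene-by-group sets stood apart from the others. The rule was the gap to its nearest neighbour relative to the range of the group, with a nominal rate of 1 in 20 sets by chance. That rate was not checked for these levels, and the same rats recur across genes, so the number flagged is not read against it. For Ddit3 these rats had 11.7 CPM in furan controls, 10.3 CPM at furan 0.03 and 8.65 CPM at 3-methylfuran 1.0. For Trib3 they had 17.1 CPM at furan 0.12 and 6.99 CPM at 3-methylfuran 0.02. The rat with 17.1 CPM of Trib3 was also the highest in Asns at furan 0.12, with 13.5 CPM. Sesn2 reached 79.1 CPM in 1 rat of 3-methylfuran 0.02. Ddit4 reached 8.72 CPM in another rat of that group and 11.05 CPM in a rat of 3-methylfuran 1.0. Hspa5 reached 1187 CPM in a further rat of 3-methylfuran 0.02.

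The effect of furan at 0.5 differed from that of 3-methylfuran at 1.0 mg/kg bw/day, by edgeR's test of the difference, in Sesn2 (0.56 on the log2 scale), Eif2ak3 (0.57) and Hspa5 (0.54). The doses, experiments and kits differ with the compound and cannot be told apart from it.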

How the results depend on the processing

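Over the planned settings, 558 values of the 10 genes kept their direction and side of the threshold, 4 became called and 8 lost the call. Over fits that left out rats, 798 kept both and 22 lost the call. Genes of the other lists are not in these counts. No called value reversed. At furan 0.03 the single call (Eif2ak3) became 0 of 10 with limma voom, without the low-count filter, with the first run only, with only the 2 groups compared and without the pair of furan controls high in Chac1, and it was 0 to 1 when each rat was left out in turn. At 3-methylfuran 0.075 the count went from 0 to 1 (Sesn2) with DESeq2, limma voom and only the 2 groups. For furan 2.0 minus 3-methylfuran 1.0 it went from 0 to 1 (Chac1) with DESeq2. Of the amino acid list at 3-methylfuran 1.0, 14 genes were called and 9 with the first run only; of the tRNA-charging list, 2 were called and 1 with DESeq2, without the filter or with only the 2 groups. The cause was not tested. At furan 2.0, 6 to 7 genes were called when each rat was left out, and Ddit4 lost its call with limma voom (adjusted p = 0.0739) and without the filter (adjusted p = 0.0772). Sesn2 in furan 0.5 minus 3-methylfuran 1.0 lost its call without the filter (adjusted p = 0.0670) and with the first run only (adjusted p = 0.0506). No paired analysis was possible because rats of different groups share no replicate number. Asns and Chac1 rest on few counts in controls (13 to 113 and 32 to 344 per furan rat), which limits their precision. The same holds for Ddit4 (47 to 139), Trib3 (52 to 199) and Ddit3 (100 to 170).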
